A study of Mus musculus with 10 samples.

Results

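The Vps34 complex genes are the 7 genes that encode Vps34, the class III PI3K, and the proteins that bind it. They were read here through chromatin accessibility, as ATAC-seq peaks that lay in the body of each gene or within 10 kb of it on the GRCm38 assembly (GENCODE annotation). Of 97385 peaks in the series, 42 met this rule. Uvrag held 24 of them, Pik3c3 6, Atg14 4, Rubcn 3, Pik3r4 2, Becn1 2 and Nrbf2 1. ATAC-seq marks DNA that the Tn5 transposase can reach, so a peak is a stretch of open chromatin, and its height is neither an RNA level nor a protein level.

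The cells were regulatory T cells (Tregs) sorted as CD4+ Foxp3-YFP+ TCRb+ cells from the spleen or lung of 10-day-old mice. Vps34-deficient Tregs came from Foxp3Cre Pik3c3 fl/fl mice, in which a Cre recombinase driven by Foxp3 deletes Pik3c3 in cells that express Foxp3. Control Tregs came from mice that were either Foxp3Cre Pik3c3 +/+ or Foxp3Cre Pik3c3 +/fl, so controls carried the same Cre-YFP allele and some may have had a single intact Pik3c3 copy. By the labels, spleen gave 2 control and 4 Vps34-deficient libraries, and lung gave 2 of each. The study's text gives the spleen group sizes the other way round, and the labels were followed. Under the labels, of 939 peaks in the whole table called between genotypes in both tissues, 938 differed in the same direction in spleen and in lung. No Pik3c3 peak checks the genotype of a single library. The study counts mice in each group, but the labels do not tie a library to an animal, so p-values measure the spread between these libraries, which may in part be technical. The cells were sorted in bulk, and a smaller share of an open cell type cannot be told apart from less open chromatin per cell.

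Vps34 phosphorylates phosphatidylinositol to PI3P, the lipid that marks early endosomes and forming autophagosomes. The kinase works with the scaffold Vps15 (Pik3r4) and with Beclin 1 (Becn1). Binding of Atg14 gives complex I, which acts in autophagy, whereas binding of Uvrag gives complex II, which acts in endosomal traffic. Nrbf2 joins complex I, and Rubicon (Rubcn) is an inhibitor that binds complexes holding Uvrag. The question asked of the data was whether loss of Vps34 came with a change in accessibility at the genes of its partners, in particular a gain.

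No member peak was called more accessible in Vps34-deficient Tregs of either tissue, and the few peaks called between genotypes were all lower and all lay away from promoters. A peak was called when the adjusted p of edgeR's quasi-likelihood test, over all 97109 tested peaks, was below 0.05 and the log2 fold change exceeded 0.5 in either direction. All 42 member peaks were tested. In spleen 0 were called higher and 1 lower, where 0.534% of all tested peaks were called higher and 1.14% lower. In lung 0 were called higher and 3 lower, with 1.41% of all peaks higher and 4.06% lower. Both lung counts depended on single libraries. Without lung control replicate 1, 2 member peaks were called higher and 6 lower, where 5.3% and 4.3% of all peaks were. None was called lower without lung control replicate 2 or without lung Vps34-deficient replicate 2, where 1.29% and 2.22% of all peaks were. The spleen call was lost without spleen control replicate 1. At an unadjusted p below 0.05, 1 member peak was higher and 5 lower in spleen, and 2 were higher and 14 lower in lung, where 14.1% and 20.2% of all peaks passed in either direction. DESeq2 called 0 higher in both tissues, 1 lower in spleen and 2 lower in lung. A count of 0 of 42 is close to these background shares of higher peaks, so nothing particular to the members is read from it.

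The sequences in front of the starts of the members are shown first because the promoter peaks are the main measurement. RefSeq windows on GRCm38.p6 were matched for 5 members, Pik3r4, Atg14, Uvrag, Nrbf2 and Rubcn. Becn1 and Pik3c3 are named only. Stretches before the start are printed 5′ to 3′ on the strand of the gene, and only where they held no annotated untranslated exon over 100 bases or more. Capitals mark matches to CCAAT (the NF-Y box), GGGCGG (the Sp box) or CACGTG (the E-box core bound by the TFEB family) on either strand. No match overlaps another. Searches for CNGGAAG (ETS), TGACGTCA (CRE), GCGCATGC (NRF1) and AAGATGGC (YY1) found no match in these stretches.
Pik3r4, chr9:105642745-105642980, plus strand: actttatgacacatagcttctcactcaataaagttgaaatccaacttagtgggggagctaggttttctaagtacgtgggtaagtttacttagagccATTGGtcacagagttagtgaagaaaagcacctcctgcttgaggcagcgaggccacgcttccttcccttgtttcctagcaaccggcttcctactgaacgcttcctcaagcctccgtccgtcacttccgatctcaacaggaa
Uvrag, chr7:99141145-99141394, minus strand: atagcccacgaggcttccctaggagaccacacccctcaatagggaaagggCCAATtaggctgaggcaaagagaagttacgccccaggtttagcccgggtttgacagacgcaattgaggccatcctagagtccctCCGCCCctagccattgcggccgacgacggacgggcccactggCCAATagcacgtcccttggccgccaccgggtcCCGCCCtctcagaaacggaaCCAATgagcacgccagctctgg
Nrbf2, chr10:67285306-67285531, minus strand: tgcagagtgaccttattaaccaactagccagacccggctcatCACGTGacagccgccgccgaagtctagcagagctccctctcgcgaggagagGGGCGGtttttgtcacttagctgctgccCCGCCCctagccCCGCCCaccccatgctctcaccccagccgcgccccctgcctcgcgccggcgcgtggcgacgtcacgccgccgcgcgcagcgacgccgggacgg
Rubcn, internal start, chr16:32868367-32868616, minus strand: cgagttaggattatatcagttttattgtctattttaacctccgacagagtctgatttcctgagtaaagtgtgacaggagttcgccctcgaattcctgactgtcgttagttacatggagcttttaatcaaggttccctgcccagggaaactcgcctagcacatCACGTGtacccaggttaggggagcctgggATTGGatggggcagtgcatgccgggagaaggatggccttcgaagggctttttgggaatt
The Uvrag stretch held 3 CCAAT and 2 GGGCGG matches. In Nrbf2, 1 CACGTG and 3 GGGCGG matches were found. The stretch before the internal start of Rubcn held 1 CACGTG and 1 CCAAT match, and that of Pik3r4 held 1 CCAAT match. The stretches are 236, 250, 226 and 250 bases long, in the order printed. Over 250 bases before the start, 33.8% of 32851 RefSeq promoters held CCAAT, 32.7% held GGGCGG and 6.02% held CACGTG. A match describes the letters in the window and is not a measured binding site.

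Promoter levels differed more between the genes than between the groups. Per kilobase of peak, and averaged over the 10 libraries, the promoter peaks stood at 130 CPM for Uvrag, 117 for Pik3c3, 68 for Pik3r4, 49.1 for Nrbf2, 28.7 for Rubcn, 22.6 for Atg14 and 11.3 for Becn1, where CPM is the count scaled to the library's total over all peaks. Among the highest peaks at the starts of protein-coding genes, Uvrag and Pik3c3 reached percentiles 94.9 and 93.1, whereas Becn1 stood at percentile 20.1. Over the 10 libraries the ranges of Uvrag and Pik3c3 overlapped, as did those of Pik3r4 and Nrbf2 and those of Rubcn and Atg14. Within every single library Pik3r4 stood above Nrbf2 and Rubcn above Atg14, whereas the order of Uvrag and Pik3c3 varied between libraries. No peak lay within 1 kb of the outermost annotated start of Atg14, and the peak at a later annotated start, which is the RefSeq start, stands for its promoter. The Rubcn promoter peak also covers the start of Fyttd1, the neighbouring gene on the other strand, so its signal cannot be given to either gene alone.

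**Figure D1:**
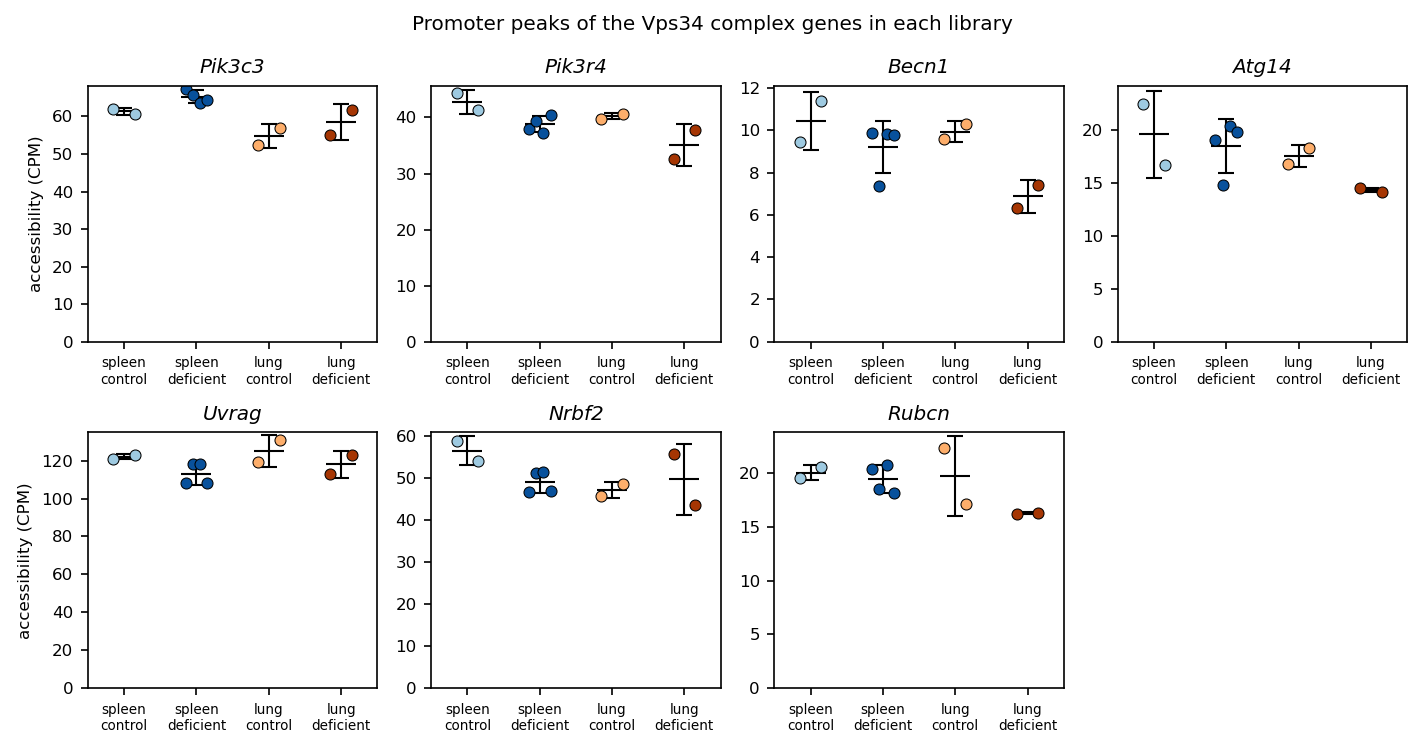
Accessibility of the promoter peak of each member in CPM (vertical axes, from 0) by library and group. Points are libraries, and bars give the mean and SD (n = 2, 4, 2 and 2). For Pik3r4, Becn1, Atg14 and Rubcn both lung deficient libraries lie under both lung controls, and no promoter passed the threshold in either tissue.

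Pik3c3, the gene that was deleted, kept an open promoter in Vps34-deficient Tregs. Its promoter peak (chr18:30272595-30273114) covers the gene start and reaches into a coding exon. It held 62 and 60.7 CPM in spleen controls against 67.3, 65.8, 63.5 and 64.3 CPM in deficient spleen. In lung it held 52.5 and 57 CPM in controls against 55.1 and 61.8 CPM in deficient libraries. All 4 deficient spleen libraries were above both controls, and the lung groups overlapped. The log2 fold change was 0.09 in spleen (SE 0.0855, 95% interval -0.08 to 0.26) and 0.07 in lung (SE 0.101, -0.14 to 0.27), with adjusted p = 0.711 and 0.754. This peak therefore does not check the genotype labels, since an open promoter does not require that the exons downstream are present. Which part of Pik3c3 the Cre removes was not given in the sources used here, and no loss was called at any of its 6 peaks.

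The other 5 Pik3c3 peaks were low. The peak 4652 bp upstream, the highest of them, averaged 9.77 ± 1.94 CPM in spleen controls (SD, n = 2) and 9.81 ± 0.762 in deficient spleen (n = 4), and 7.55 ± 1.5 and 7.74 ± 0.769 in lung (n = 2 each). Its log2 fold change was 0.00 in both tissues, with intervals of -0.38 to 0.39 in spleen and -0.48 to 0.49 in lung. An intronic peak (chr18:30315301-30315512) had the smallest unadjusted genotype p of this gene, which chose it for description. Its CPM of 0.178 and 0.413 in spleen controls against 0.695, 0.856, 0.632 and 0.287 in deficient spleen overlapped. Its adjusted p was 0.541 in spleen and 0.439 in lung, at a mean of 12 counts per library.

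Pik3r4 encodes Vps15, the scaffold that Vps34 needs for activity. Its promoter peak (chr9:105642664-105643238) covers the gene start and an untranslated exon. It held 44.3 and 41.3 CPM in spleen controls and 37.9, 39.3, 37.3 and 40.5 CPM in deficient spleen, and 39.8 and 40.6 CPM in lung controls and 32.5 and 37.7 CPM in deficient lung. Every deficient library lay under both controls of its tissue, but the differences did not pass the test. The log2 fold change was -0.14 in spleen (SE 0.0985, interval -0.34 to 0.06, adjusted p = 0.569) and -0.22 in lung (SE 0.119, -0.46 to 0.02, adjusted p = 0.292). The only other Pik3r4 peak, in an intron (chr9:105668184-105668393), was ordered the other way in spleen. It held 0.446 and 0.551 CPM in spleen controls against 1.81, 0.979, 0.903 and 1.29 CPM in deficient spleen, all higher, while in lung 2.76 and 1.55 CPM in controls overlapped 2.76 and 1.91 CPM. Its log2 fold change was 1.31 in spleen (SE 0.521, interval 0.25 to 2.37, adjusted p = 0.224) and 0.13 in lung (-0.92 to 1.18, adjusted p = 0.918), at a mean of 19.8 counts per library, and it was not called.

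Becn1 encodes Beclin 1, the subunit through which regulators reach the complex. Its promoter peak (chr11:101301687-101302493) held 9.45 and 11.4 CPM in spleen controls and 9.88, 7.34, 9.84 and 9.76 CPM in deficient spleen, which overlapped. In lung the controls held 9.57 and 10.3 CPM and the deficient libraries 6.33 and 7.41 CPM, with no overlap. The log2 fold change in lung was -0.56 (SE 0.237, interval -1.05 to -0.08), the lowest of the 7 promoters, with adjusted p = 0.168. In spleen it was -0.18 (SE 0.188, -0.56 to 0.21, adjusted p = 0.749). The only other Becn1 peak lies 6738 bp downstream, over the starts of Coa3 and Cntd1, and was not called (log2 fold change -0.19 in spleen and -0.33 in lung).

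Atg14, the subunit that directs complex I to autophagy, was the one member with calls among the complex I genes. Its promoter peak (chr14:47567911-47568692) held 22.5 and 16.7 CPM in spleen controls and 19.1, 14.8, 20.4 and 19.8 CPM in deficient spleen. In lung it held 16.8 and 18.3 CPM in controls against 14.5 and 14.2 CPM in deficient libraries. The spleen groups overlapped and the lung groups did not. The log2 fold change was -0.08 in spleen (interval -0.39 to 0.22, adjusted p = 0.872) and -0.32 in lung (-0.70 to 0.06, adjusted p = 0.343).

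A peak 6643 bp downstream of the Atg14 gene end (chr14:47533571-47534250) fell in lung. Its nearest protein-coding start is that of Fbxo34, 7492 bp away, and the outermost Atg14 start is 36399 bp away. It held 18.1 and 17.9 CPM in lung controls and 12.3 and 7.62 CPM in deficient lung, against 15.9 and 16.4 CPM in spleen controls and 11.4, 12.6, 14.9 and 11.8 CPM in deficient spleen. All deficient libraries were lower than the controls of their tissue. In lung the level fell by 0.86 on the log2 scale (SE 0.21, adjusted p = 0.0111). In spleen the log2 fold change was -0.34 (interval -0.69 to 0.00) and was not called (adjusted p = 0.363). The difference between the tissues was itself not called (interaction -0.51, interval -1.07 to 0.04, adjusted p = 0.71). The lung call depended on single libraries. Without lung control replicate 2 it was -0.82 and without lung Vps34-deficient replicate 2 it was -0.49, and neither was called. In an additive model, which fits 1 genotype effect over both tissues, its log2 fold change was -0.55 (adjusted p = 0.0117), and that call was lost without lung control replicate 1 (-0.50) or lung Vps34-deficient replicate 2 (-0.41).

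A further Atg14 peak, over the untranslated part of the last exon (chr14:47541314-47542012), separated the groups in both tissues without passing the threshold of size. It held 24.9 and 25.3 CPM in spleen controls against 17.9, 18, 19 and 18.7 CPM in deficient spleen, and 20 and 23.1 CPM in lung controls against 15.4 and 17.8 CPM in deficient lung. Its log2 fold change was -0.44 in spleen (adjusted p = 0.0756) and -0.41 in lung (adjusted p = 0.14). In the additive model it was -0.43 (SE 0.103, adjusted p = 0.00656), which passes the threshold on p but not that of 0.5 on size. Non-coding Gm49004 overlaps this peak.

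The remaining Atg14 peak, over a coding exon (chr14:47545784-47546164), was higher in deficient lung, with the largest positive lung log2 fold change of the 42 peaks. It was chosen for description after its values were seen. It held 2.34 and 0.282 CPM in lung controls against 3.41 and 4.23 CPM in deficient lung, with no overlap, and 1.43 and 2.07 CPM in spleen controls against 2.57, 1.83, 3.11 and 2.15 CPM in deficient spleen, which overlapped. The lung log2 fold change was 1.64 (SE 0.542, interval 0.54 to 2.75, unadjusted p = 0.00497, adjusted p = 0.0699 by edgeR), short of the threshold on p. In spleen it was 0.50 (-0.39 to 1.38, adjusted p = 0.673). The lung controls differed more from each other than the deficient libraries did, at a mean of 33.6 counts per library.

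Nrbf2, the complex I subunit that binds through Atg14, had 1 peak, at its promoter (chr10:67284644-67285666). It held 58.8 and 54 CPM in spleen controls and 46.6, 51.2, 51.4 and 46.8 CPM in deficient spleen, and 45.7 and 48.5 CPM in lung controls and 55.6 and 43.6 CPM in deficient lung. Deficient spleen lay under the controls, and the deficient lung libraries lay on either side of both lung controls. On the log2 scale the change was -0.20 in spleen (interval -0.40 to -0.00, adjusted p = 0.344) and 0.05 in lung (-0.18 to 0.29, adjusted p = 0.837). The interaction was 0.25 (-0.05 to 0.56, adjusted p = 0.756).

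Uvrag, which defines complex II, had the most peaks, and its promoter had the highest mean level per kilobase, in a range that overlapped that of Pik3c3. The promoter peak (chr7:99140760-99141669) held 121 and 123 CPM in spleen controls and 108, 118, 118 and 108 CPM in deficient spleen. In lung it held 119 and 131 CPM in controls against 113 and 123 CPM in deficient libraries. Deficient over control, the log2 fold change was -0.12 in spleen (SE 0.0719, interval -0.26 to 0.03) and -0.11 in lung (SE 0.0844, -0.28 to 0.06), with adjusted p = 0.508 and 0.487. Its intervals are the narrowest of the 7 promoters, and neither reaches the threshold of 0.5. Non-coding Gm45185 overlaps the peak.

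Within the introns of Uvrag, 1 peak fell in Vps34-deficient Tregs of both tissues. This peak (chr7:99049867-99050300) is centred 91058 bp into the gene. It held 5.26 and 4.27 CPM in spleen controls and 1.25, 1.1, 1.26 and 2.15 CPM in deficient spleen. In lung it held 6.38 and 11.4 CPM in controls against 3.09 and 1.27 CPM in deficient libraries. The groups did not overlap in either tissue. The level fell to 0.299 of control in spleen (log2 fold change -1.74, SE 0.324, adjusted p = 0.00212) and to 0.245 of control in lung (-2.03, SE 0.391, adjusted p = 0.00123). The interaction of -0.29 (interval -1.35 to 0.77, adjusted p = 0.946) gave no call of a difference between the tissues. In the additive model the log2 fold change was -1.86 (SE 0.25, adjusted p = 5.22e-06). The call was lost in spleen without spleen control replicate 1 (-1.63) and in lung without lung control replicate 2 (-1.49) or without lung Vps34-deficient replicate 2 (-1.48).

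A second intronic peak (chr7:98962558-98963277), centred 178224 bp into Uvrag, fell in lung. It held 6.38 and 9.74 CPM in lung controls and 3.9 and 4.87 CPM in deficient lung. In spleen the controls held 6.33 and 7.99 CPM and the deficient libraries 5.7, 6.36, 6.05 and 5.45 CPM, which overlapped. The lung log2 fold change was -0.93 (SE 0.279, adjusted p = 0.0426), and the spleen value was -0.27 (interval -0.72 to 0.18, adjusted p = 0.645). This call lies close to the threshold and was lost with DESeq2, median-of-ratios factors, the replicate block or a chromosome Y covariate (-0.89 each), with the lung libraries alone (-0.92) and, among libraries left out, without either lung Vps34-deficient library, lung control replicate 2, either spleen control, or spleen Vps34-deficient replicate 2 or 4 (-1.01 to -0.53).

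The additive model added a pair of weak peaks near the far end of Uvrag. The peak at chr7:98913016-98913294 averaged 1.69 ± 0.636 CPM in spleen controls and 0.607 ± 0.178 in deficient spleen, and 2.23 ± 0.757 and 0.879 ± 0.553 in lung, with a log2 fold change of -1.43 (SE 0.378, adjusted p = 0.0147). Its neighbour at chr7:98913621-98913911 averaged 2.2 ± 0.59 and 0.991 ± 0.353 CPM in spleen and 2.12 ± 0.593 and 0.854 ± 0.289 in lung, with a log2 fold change of -1.22 (SE 0.342, adjusted p = 0.0207). At both peaks every deficient library was lower than the controls of its tissue. With the Atg14 downstream peak and the 91058 bp Uvrag peak these were the 4 member peaks called lower in the additive model, where 4.09% of all peaks were lower and 3.39% higher. None of the 42 was called higher there, at 2 with an unadjusted p below 0.05 and 0 by DESeq2. The 2 weak peaks rest on means of 17.6 and 21.4 counts per library, and the first lost its call without spleen control replicate 1 (-1.21) or under the replicate block. The other lost it without spleen control replicate 2 (-1.08), lung control replicate 2 (-1.12) or lung Vps34-deficient replicate 1 (-1.11).

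**Figure D2:**
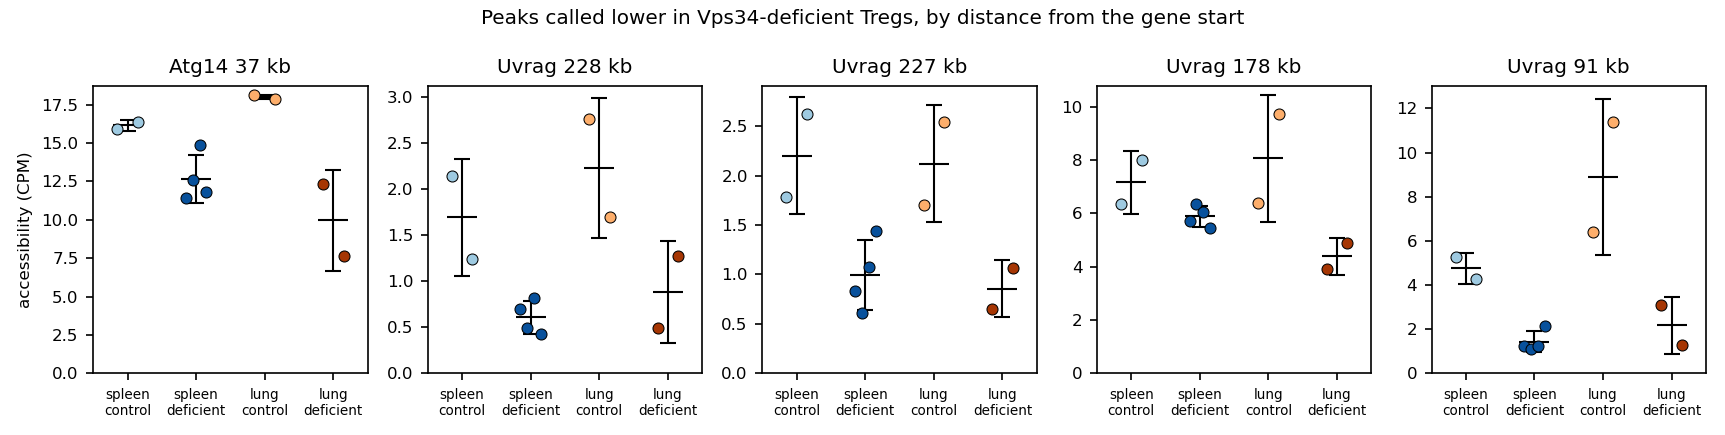
Accessibility in CPM (vertical axes, from 0) of the 5 member peaks called lower in spleen, lung or the additive model, each named by gene and distance of its centre from the gene start. Points are libraries, and bars give the mean and SD (n = 2, 4, 2 and 2). At the Uvrag peak centred 91058 bp into the gene, all deficient libraries lie under all controls.

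Over all 23 intronic Uvrag peaks, the called ones included, the median log2 fold change was -0.14 in spleen and -0.56 in lung, against 0.05 and 0.02 over all tested peaks. Single peaks spanned -1.74 to 0.51 in spleen, and in lung they spanned -2.24 to 1.23. At an unadjusted p below 0.05 stood 3 of 23 in spleen, which is 13% where 14.1% of all tested peaks did so, and 11 of 23 in lung, which is 47.8% where 20.2% did so. The lowest lung value, -2.24 (interval -3.65 to -0.82), was that of chr7:98962141-98962411, which was not called, with 0.638 and 2.68 CPM in controls against 0.325 and 0.423 CPM in deficient libraries (adjusted p = 0.0513). The highest intronic peak (chr7:99041786-99042328) held 20 and 23.8 CPM in lung controls and 17.2 and 16.1 CPM in deficient lung, a log2 fold change of -0.42 (interval -0.80 to -0.05, adjusted p = 0.186), and 0.08 in spleen (-0.23 to 0.40).

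**Figure D3:**
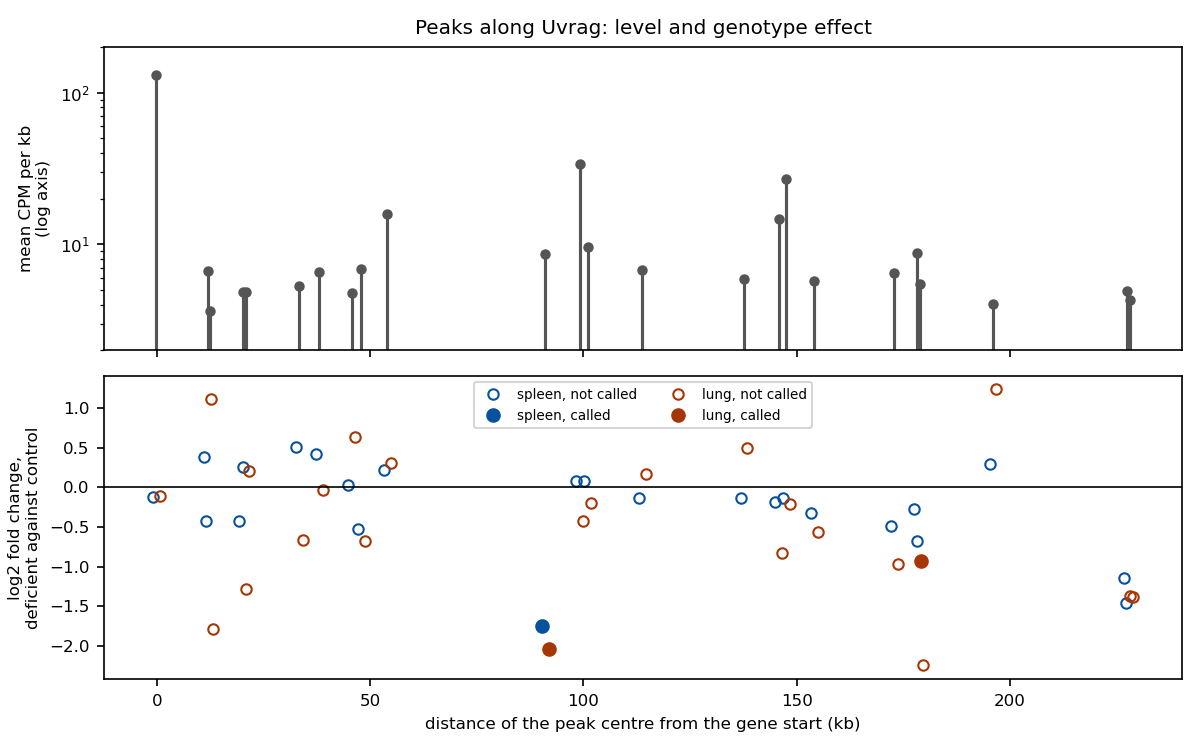
Peaks along Uvrag by the distance of their centre from the gene start in kb. The upper panel gives the mean level over 10 libraries in CPM per kb on a log axis, and the lower panel the log2 fold change of Vps34-deficient against control Tregs, with filled circles for called peaks. The promoter at 0 is the tallest peak and lies near no change, and the called peaks lie inside the gene.

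The centres of the 3 peaks called lower in spleen or lung are printed because they carry the calls. Each stretch is 300 bases of the plus strand of GRCm38 around the middle of the peak. Capitals mark matches on either strand to TGANTCA (AP-1), CACGTG (E-box) or CNGGAAG (ETS). No match was found for the RUNX word TGTGGT or for the GATA factor word AGATAAG. The NF-kB word GGGANNTCC and the forkhead word TGTTTAC were likewise not found in them.
Atg14 downstream peak, chr14:47533760-47534059: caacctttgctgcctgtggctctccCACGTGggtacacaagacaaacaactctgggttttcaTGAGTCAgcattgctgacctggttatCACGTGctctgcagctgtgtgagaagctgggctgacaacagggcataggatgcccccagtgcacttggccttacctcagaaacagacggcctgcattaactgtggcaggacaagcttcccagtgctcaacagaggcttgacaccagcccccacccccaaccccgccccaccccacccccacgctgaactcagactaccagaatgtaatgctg
Uvrag intronic peak, chr7:98962767-98963066: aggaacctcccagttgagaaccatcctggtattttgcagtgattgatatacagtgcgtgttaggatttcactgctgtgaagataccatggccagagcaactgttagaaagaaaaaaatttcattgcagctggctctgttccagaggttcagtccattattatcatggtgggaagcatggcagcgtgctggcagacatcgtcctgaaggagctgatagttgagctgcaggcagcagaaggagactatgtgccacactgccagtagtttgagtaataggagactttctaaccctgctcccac
Uvrag intronic peak, chr7:99049933-99050232: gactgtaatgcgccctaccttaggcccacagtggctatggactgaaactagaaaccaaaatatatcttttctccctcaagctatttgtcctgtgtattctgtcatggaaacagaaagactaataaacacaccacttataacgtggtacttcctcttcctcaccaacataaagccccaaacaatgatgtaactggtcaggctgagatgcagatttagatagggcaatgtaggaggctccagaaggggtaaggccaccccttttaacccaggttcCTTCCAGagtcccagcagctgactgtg
The Atg14 stretch held 1 AP-1 and 2 E-box matches, the Uvrag peak at 91058 bp held 1 ETS match, and the other Uvrag stretch held none. Around the centres of all peaks, 13% of 97250 windows of this length held the AP-1 letters, 6.08% the E-box and 32.7% the ETS letters. The promoter peaks of the members had a median GC content of 61.8%, and 61.6% was found for all peaks at protein-coding starts. Their other peaks had 49.3%, and 47.5% was found for all other peaks. Repeat-masked bases made up 14.7% of the Uvrag peak at 91058 bp, 41.1% of the peak at 178224 bp and 22.2% of the Atg14 downstream peak.

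Rubcn, the inhibitor, was measured at 2 annotated starts and at 1 peak downstream. The outer start (chr16:32877333-32877993), shared with Fyttd1, held 19.5 and 20.5 CPM in spleen controls and 20.4, 18.5, 20.7 and 18.1 CPM in deficient spleen, and 22.3 and 17.1 CPM in lung controls and 16.2 and 16.3 CPM in deficient lung. Its log2 fold change was -0.04 in spleen (interval -0.33 to 0.24, adjusted p = 0.942) and -0.29 in lung (-0.64 to 0.06, adjusted p = 0.349). At the internal start (chr16:32867940-32868560) the values were 28.2 and 25.9 against 24.6, 27.3, 25.6 and 24.4 CPM in spleen, and 20.6 and 23 against 24.5 and 23.3 CPM in lung. The log2 fold change there was -0.08 in spleen (-0.33 to 0.16) and 0.11 in lung (-0.19 to 0.40), so the point estimates of the starts had opposite signs in lung and both intervals spanned 0. The downstream peak (chr16:32812776-32813292) held 21.1 and 32 CPM in lung controls and 21.9 and 20.7 CPM in deficient lung, which overlapped. Its log2 fold change was -0.35 in lung (interval -0.69 to -0.01, adjusted p = 0.229) and 0.06 in spleen (adjusted p = 0.914), and it was not called.

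Across the 7 promoter peaks none was called in either tissue, at 1 with an unadjusted p below 0.05 in each tissue (14.3%, where 6.58% of the highest peaks at protein-coding starts were in spleen and 16.8% in lung) and 0 by DESeq2. Log2 fold changes lay between -0.20 and 0.09 in spleen, and in lung they lay between -0.56 and 0.07. Their medians were -0.12 and -0.22, and the highest peak at each of 11689 protein-coding starts had medians of -0.03 and -0.06. The upper ends of the 95% intervals reached at most 0.26 in spleen and 0.29 in lung, so a gain of more than 0.5 at any of these promoters lies outside the interval of each. The lower ends reached -0.56 and -1.05, both at Becn1, so a loss of up to that size at Becn1 lies within its interval. In lung the lower ends at Atg14 (-0.70) and Rubcn (-0.64) also passed -0.5. In the additive model 0 promoters were called, with 3 at an unadjusted p below 0.05 (Pik3r4, Becn1 and Uvrag, all lower, which is 42.9% where 16% of such peaks were) and 0 by DESeq2.

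**Figure D4:**
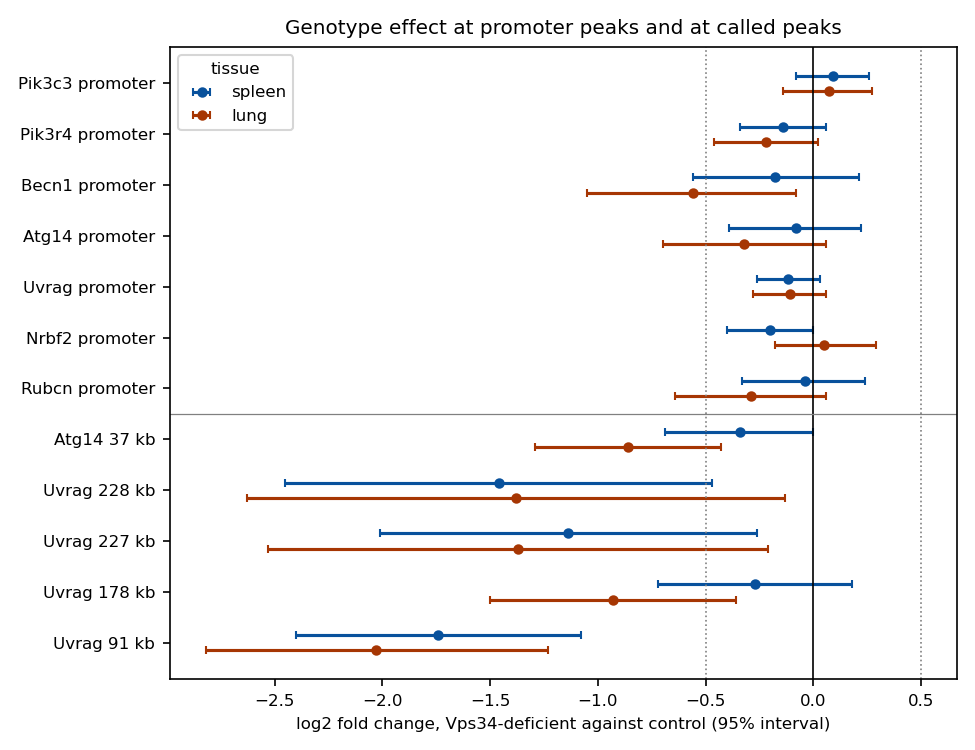
Log2 fold change of Vps34-deficient against control Tregs (horizontal axis) with its 95% interval, for spleen and lung, at the 7 promoter peaks (upper part) and the 5 peaks called in spleen, lung or the additive model (lower part). Dotted lines mark 0.5 in either direction. The promoter intervals end at 0.29 or lower on the right.

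The libraries of the deficient group lay below the controls at more member peaks than they lay above them. Uvrag holds 24 of the 42 peaks, and most of the peaks ordered lower in each tissue are its own. The counts therefore weigh 1 gene most and do not describe the members as separate units. In spleen 9 of the 42 peaks had all deficient libraries under both controls and 2 had all above, where 11.1% and 15% of all tested peaks did so. In lung 19 had all deficient libraries under the controls and 6 had all above, where 22% and 23.8% of all peaks did so. No peak was ordered in opposite directions in the tissues. For the interaction 0 of 42 were called by edgeR and 0 by DESeq2, with 1 at an unadjusted p below 0.05, and 0.00206% of all peaks were called.

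To read each gene as a unit, counts were summed over its peaks and the sums were fitted with those of all 17652 tested genes. No member was called in spleen, lung, the additive model or the interaction, where 0.266%, 2.10%, 2.03% and 0% of all genes were called. At an unadjusted p below 0.05 stood 1 of 7 in spleen, 3 in lung, 3 in the additive model and 0 in the interaction, and every one of these was lower in deficient cells. Atg14 had the lowest additive value. Its sums were 64.7 and 60.5 CPM in spleen controls and 51, 47.2, 57.5 and 52.4 CPM in deficient spleen, and 57.2 and 59.7 against 45.6 and 43.8 CPM in lung. The additive log2 fold change was -0.29 (SE 0.0654, adjusted p = 0.0132), below the threshold on p and short of that on size. Uvrag had -0.14 (SE 0.0431, adjusted p = 0.0669) and Becn1 -0.25 (SE 0.106, adjusted p = 0.163). Pik3c3 alone had a positive additive value, 0.11 (SE 0.0547, adjusted p = 0.241), which was 0.09 in spleen and 0.15 in lung.

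The same peaks were also compared between lung and spleen within each genotype. The counts called among the 42 peaks were small and moved when single libraries were left out. Nothing particular to the members is therefore read from them. Between lung and spleen 0 of 7 promoters were called in control or in deficient Tregs, with 0 at an unadjusted p below 0.05 in both, where 19.6% and 23.8% of the highest peaks at protein-coding starts were, and 0 by DESeq2. Among all 42 peaks, 3 were higher in lung than in spleen in controls and 0 lower (0 at an unadjusted p below 0.05 and 0 by DESeq2), where 12.0% and 3.68% of all peaks were called. In deficient Tregs 3 were higher and 2 lower, where 12.7% and 4.91% were called. The peak 4296 bp downstream of Pik3c3 (chr18:30352422-30352626) was higher in lung in both genotypes. It held 0.267 and 0.138 CPM in spleen controls and 1.91 and 1.41 CPM in lung controls, and 0.417, 0.245, 0.181 and 0.431 against 1.62 and 1.69 CPM in deficient cells. The lung level was 7.95-fold the spleen level in controls (adjusted p = 0.00719) and 5.46-fold in deficient cells (adjusted p = 0.0049), at a mean of 10.2 counts per library. The control call was lost without spleen control replicate 1 (3.47 on the log2 scale) or 2 (2.62), or lung control replicate 1 (2.69). The call in deficient cells was lost under the replicate block (2.37).

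The remaining tissue calls were each made in 1 genotype. In controls they were an intronic Pik3r4 peak (chr9:105668184-105668393), with 0.446 and 0.551 CPM in spleen and 2.76 and 1.55 CPM in lung (log2 fold change 2.16, adjusted p = 0.00912), and the Uvrag peak at 91058 bp (0.99, adjusted p = 0.0479). In deficient cells the Pik3c3 intronic peak at chr18:30315301-30315512 was higher in lung (1.83, adjusted p = 0.0305), as was a Uvrag peak at chr7:99086757-99087432 (0.58, adjusted p = 0.0375). The Uvrag peaks at chr7:98962141-98962411 (-1.92, adjusted p = 0.0325) and chr7:98995185-98995557 (-0.74, adjusted p = 0.0459) were lower in lung there. None of these 6 had a called interaction, and each call was lost without at least 1 library. The Pik3r4 call was lost without either spleen control replicate 1 or lung control replicate 1 (1.64 in the latter case). That of the Uvrag peak at 91058 bp was lost without either spleen control, spleen Vps34-deficient replicates 1, 2 or 3, or lung control replicate 2 (0.40 to 1.05). The 4 calls in deficient cells were each lost without either lung Vps34-deficient library (1.62 and 2.12 for Pik3c3, 0.64 and 0.64, -1.67 and -2.04, and -0.78 and -0.61 for the Uvrag peaks in the order given), and each also without at least 2 of the spleen libraries.

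The wider PI3P pathway was read from lists of genes by role. Genes for other sources of PI3P, which are the class II PI3Ks and the 4-phosphatases that make PI3P from PI(3,4)P2, held 104 tested peaks. In spleen 0 were called either way, where 0.534% of all peaks were called higher and 1.14% lower. At an unadjusted p below 0.05, 6 were higher and 6 lower there. In lung 0 were called higher and 2 lower, which is 1.92% lower where 4.06% of all peaks were. Both lay in Inpp4b. The peak at chr8:81611224-81612075 held 11.9 and 12 CPM in lung controls and 5.85 and 3.6 CPM in deficient lung (log2 fold change -1.34, SE 0.262, adjusted p = 0.00137), and that at chr8:81756692-81757087 held 11.5 and 16.8 against 6.66 and 6.99 CPM (-1.09, SE 0.27, adjusted p = 0.0123). The median log2 fold change of the list was 0.08 in spleen and -0.19 in lung. No peak lay within 1 kb of the starts of Pik3c2a and Pik3c2g.

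Genes of PI3P turnover, the myotubularin phosphatases and the Pikfyve kinase complex that use up PI3P, held 69 tested peaks, of which 1 was higher in spleen (1.45% where 0.534% of all peaks were) and 1 was higher and 1 lower in lung (1.45% each, where 1.41% and 4.06% of all peaks were). The spleen call was a peak in the body of Pikfyve (chr1:65216945-65217154), with 2.67 and 3.44 CPM in controls against 6.12, 6.48, 5.69 and 7.32 CPM in deficient libraries (1.08, SE 0.273, adjusted p = 0.0337). Lung had a higher peak in the body of Mtmr1 (18.3 and 11.1 against 26.6 and 28.2 CPM, 0.89, adjusted p = 0.0108) and a lower peak in the body of Mtmr7 (21.1 and 25.8 against 13 and 12.8 CPM, -0.89, adjusted p = 0.019). Genes for PI3P effectors held 91 peaks. In spleen 0 were called (7 higher and 9 lower at an unadjusted p below 0.05), where 0.534% of all peaks were called higher and 1.14% lower. In lung 2 were called higher and 8 lower, which is 2.2% and 8.79% where 1.41% and 4.06% of all peaks were. A peak in the body of Eea1 fell from 5.32 and 7.2 CPM in lung controls to 1.46 and 1.06 CPM (-2.32, SE 0.382, adjusted p = 0.000194), and a peak 1887 bp from the start of Rufy1, outside the gene, from 3.61 and 5.79 to 0.65 and 0.423 CPM (-3.12, SE 0.52, adjusted p = 0.000217). Both encode proteins that bind PI3P on endosomes.

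Upstream regulators of the complex held 144 peaks, with 1 higher and 0 lower in spleen (0.694% higher where 0.534% of all peaks were, and 3 lower at an unadjusted p below 0.05) and 4 higher and 4 lower in lung (2.78% each, where 1.41% and 4.06% of all peaks were). A peak in the body of Usp10, a deubiquitinase that acts on Beclin 1, rose in both tissues. It held 9.89 and 8.47 CPM in spleen controls and 17.4, 19.5, 16.2 and 17.2 CPM in deficient spleen, and 6.17 and 4.66 against 17.1 and 12.9 CPM in lung. In log2 units the difference was 0.93 in spleen (SE 0.178, adjusted p = 0.00262) and 1.47 in lung (SE 0.222, adjusted p = 6.48e-05). A peak in the body of Bcl2l1, whose product binds Beclin 1, fell in lung (29.6 and 35 against 18.5 and 19.7 CPM, -0.79, adjusted p = 0.00147). Of the TFEB family, whose factors bind CACGTG, 3 of 4 genes had peaks, and 0 of 22 were called in either tissue. Of all peaks, 0.534% were called higher and 1.14% lower in spleen, and 1.41% and 4.06% in lung. At an unadjusted p below 0.05, 1 TFEB family peak was higher and 1 lower in spleen, and 2 and 2 in lung. None of the peaks at the starts of these pathway genes was called in either tissue by edgeR. With 0.534% to 4.06% of all peaks called per direction, nothing particular to these genes is read from such counts of 0.

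The promoter patterns most like those of the members were sought over the 10 libraries among 10582 coding-gene start peaks, as Pearson r of log2 CPM. They were Akap5 (0.97) and Tpd52 (0.953) for Pik3c3, BC024063 (0.942) and Akr1c13 (0.92) for Pik3r4, Haus4 (0.944) and Slc38a7 (0.928) for Becn1, Mtmr1 (0.915) and Actr3b (0.912) for Atg14, Dusp18 and 4921536K21Rik (0.937 each) for Uvrag, Pum2 (0.92) and Ubac1 (0.918) for Nrbf2, and Cdkn3 (0.933) and Cgrrf1 (0.908) for Rubcn. These are the highest of many values over 10 libraries that share depth and group, and are given as a description. The promoters themselves varied little, with an SD of log2 CPM between 0.0889 for Uvrag and 0.252 for Becn1. Among pairs of members, r ran from -0.387 (Uvrag and Pik3c3) to 0.677 (Becn1 and Pik3r4).

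The lung libraries were on average shallower than the spleen libraries, within totals of 9405823 to 22439699 counts. All 8 Treg markers, Foxp3 among them, had a peak at the gene start. Of the 134 tested peaks in or within 10 kb of these genes, 0 were called higher and 10 lower in deficient lung (7.46% lower where 4.06% of all peaks were), with 2 higher and 26 lower at an unadjusted p below 0.05, and 1 was called higher and 1 lower in spleen. Of 5 myeloid markers 3 had one, with none at Csf1r and Lyz2, and their sum was 21.8 to 24.2 CPM in spleen controls, 15.4 to 21.4 in deficient spleen, 24 to 26.4 in lung controls and 15.8 to 16.9 in deficient lung. Among 5 CD8 and NK markers 3 had one, and their sum was 21 to 24.5 CPM in lung controls and 30.4 to 30.5 CPM in deficient lung. In spleen it was 24.9 to 29.7 CPM in controls and 23.5 to 33.6 CPM in deficient libraries, which overlapped. Of 15 tested peaks in or near these genes, 1 was called higher and 0 lower in deficient lung (6.67% higher where 1.41% of all peaks were). Of 6 lung epithelium and endothelium markers 2 had one, with none at Sftpc, Nkx2-1, Cdh5 or Tek, and a sum of 38.5 to 49.2 CPM over all libraries. Among the 33 tested peaks in or near these genes, 0 were called higher and 4 lower in deficient lung (12.1% lower), with 1 higher and 9 lower at an unadjusted p below 0.05, and 1 was called higher in spleen. Klrb1c and Ncr1 had no start peak. The myeloid sums are lower in deficient Tregs of both tissues, the CD8 and NK sums are higher in deficient lung, peaks of the Treg and of the epithelium and endothelium lists are among those called lower there, and their part in the called peaks was not tested.

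At the edge of the 10 kb window the nearest peak inside was the Rubcn peak 8411 bp downstream of the gene (26.5 ± 7.77 CPM in lung controls and 21.3 ± 0.837 in deficient lung, n = 2 each). The nearest outside was a peak 10136 bp from Uvrag (25.5 ± 3.33 and 22.6 ± 0.43 CPM).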

How the data were processed

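ATAC-seq libraries of sorted Tregs were analysed as deposited. The authors trimmed and aligned the reads, removed duplicates, shifted reads for Tn5, kept nucleosome-free fragments, called peaks per sample with MACS2, merged peaks that recurred among the replicates of a genotype, and counted reads per peak. The deposited values are these raw counts. The submitters' notes name cutadapt 1.9, Picard 1.65 and MACS2 2.1.0.20150603. Even numbers made up 91.5% to 96.5% of the values per library, as when both mates are counted. The methods name mm9 and the labels GRCm38. On GRCm38, 51.08% of 22028 gene starts lay in a peak, against 2.252% and 2.215% after shifts of 500000 bp, so GRCm38 was used. The study's text gives the spleen group sizes in reverse of the labels, and the labels were followed.

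All 10 libraries, with totals from 9405823 to 22439699 counts, entered a single edgeR 4.0.16 fit (R 4.3.3; filterByExpr, TMM, robust quasi-likelihood), with 4 groups, or with genotype and tissue for the additive model. P-values are two-sided and adjusted by Benjamini-Hochberg over all tested peaks, or over all genes for summed counts. CPM uses the column total. DESeq2 1.42.0, other scalings, filters, windows and thresholds, and each library left out were alternatives. The scripts were tested on simulated data. Named peaks were the promoter peak, the highest distal peak, the peak with the smallest genotype p and every called peak of each member, and for other lists the 2 called peaks with the smallest p per tissue. The members and lists were chosen with earlier results of these data known. Pearson r for likeness used log2(CPM + 0.5), genes with a mean of at least 100 counts per library and none within 100 kb. The result of 1 marker list is not reported here.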

Additional observations from a re-analysis of the deposited data

Results flagged for a closer look

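In the group of 4 Vps34-deficient spleen libraries, 3 of the 42 member peaks had 1 library apart from the others by Dixon's test, and chance alone gives about 1 in 20. At the Becn1 promoter, replicate 2 was low at 7.34 CPM, where the others held 9.76 to 9.88 CPM. At the Uvrag intronic peak chr7:98986885-98987210, replicate 3 was low at 0.903 CPM, where the others held 2.08 to 2.3 CPM. At the called Uvrag peak chr7:99049867-99050300, replicate 4 was high at 2.15 CPM, where the others held 1.1 to 1.26 CPM, and it remained under both spleen controls.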

How the results depend on the processing

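The count of 0 called locus sums held under every alternative run. In lung, higher peaks numbered 1 rather than 0 with halved counts or an adjusted p below 0.1, and lower peaks 1 rather than 3 with the lung libraries alone. In the additive model, higher peaks numbered 1 with an adjusted p below 0.1 or a 50 kb window. Between tissues in controls, the 50 kb window gave 6 higher and 1 lower. In deficient cells it gave 5 and 5, the replicate block 0 and 0, the chromosome Y covariate 1 and 0, and DESeq2 1 lower. With 1 library left out, lower calls ranged from 0 to 1 in spleen, 0 to 6 in lung and 3 to 5 in the additive model, and higher calls from 0 to 2 in lung. Tissue calls ranged from 0 to 4 higher and 0 to 1 lower in controls, and from 1 to 4 higher and 0 to 2 lower in deficient cells. Small values changed sign in 7 cases. Without spleen control replicate 1 the Atg14 promoter stood at 0.10 in spleen (range over single libraries left out -0.31 to 0.10). Without lung Vps34-deficient replicate 1 the lung values were 0.03 for the Uvrag promoter (-0.12 to 0.03), -0.06 for the Nrbf2 promoter (-0.06 to 0.29) and -0.07 for the Nrbf2 sum (-0.07 to 0.27). The Rubcn promoter stood at 0.01 in lung without lung control replicate 1 (-0.44 to 0.01), the Rubcn sum at 0.01 in spleen without spleen Vps34-deficient replicate 4 (-0.03 to 0.01), and the Becn1 sum at 0.03 in spleen over 50 kb. The causes were not tested. Same-numbered libraries did not deviate together (r from -0.10 to 0.06). With only 2 libraries in most groups, this cannot decide whether the numbers pair them. Under the replicate block, lower and higher calls over all peaks were 323 and 60 in spleen, rather than 1110 and 519. Peaks with means near 10 to 20 counts per library have wide intervals, and smaller changes there were not detectable at this depth.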
